A study of Mus musculus with 2 samples.

Results

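The 10 genes described here encode the ligands and receptors of the VEGF and angiopoietin families in the adrenal gland: the ligands Vegfa, Vegfb, Vegfc, Angpt1 and Angpt2 and the receptors Flt1, Kdr, Flt4, Nrp1 and Tek. They were found by gene symbol among the 55536 annotated genes, and all 10 were measured in both libraries. The series holds 1 group of 2 total RNA libraries, which are called mouse 2 and mouse 1 after their biological replicate numbers. Both come from adrenal glands of female adult mice aged 8 to 10 months with the strain label 5xFAD/CAST, a cross of 5xFAD with CAST. 5xFAD is an Alzheimer's disease model whose transgenes are driven by the neuronal Thy1 promoter, and CAST is a wild-derived inbred strain. Whether each mouse carried the transgenes is not stated in the labels. No second genotype, treatment or age is analysed here, so the comparisons are between genes, between transcripts of a gene and between the 2 libraries. The labels give both libraries the same donor entry, so the replicate numbers alone make them separate animals, and the spread between them may be technical. Each library was made from 300 ng of RNA with a directional kit after reduction of ribosomal RNA, with ERCC spike-in RNA added. Expected counts over the gene rows came to 32192201 for mouse 2 and 36558609 for mouse 1.

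VEGF ligands are secreted dimers that bind receptor tyrosine kinases on endothelial cells. VEGF-A signals mainly through Kdr (VEGFR-2), while Flt1 (VEGFR-1) binds it more tightly and acts largely as a decoy, most of all in its soluble form. The angiopoietins act through the receptor Tek (TIE2), where Angpt1 is an agonist that quiets vessels and Angpt2 often opposes it. The adrenal cortex is supplied by dense sinusoids of fenestrated endothelium, a kind of vessel that depends on VEGF-A.

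Vegfa makes several proteins by leaving out exons, and the stretch that differs decides how tightly the ligand binds heparan sulfate and the neuropilins. The coding sequence from exon 5 to the last coding exon is shown for the 3 forms described below because it is the part in which they differ. The capitals mark exon 6 (chr17:46022277-46022348, 72 bases) and exon 7 (chr17:46020991-46021122, 132 bases), and the lower case marks the exons on either side. Sequences are from the GENCODE M21 transcripts on mm10, minus strand, chr17:46018861-46024094, printed 5′ to 3′.
VEGF120: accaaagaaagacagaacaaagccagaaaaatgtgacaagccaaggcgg
VEGF164: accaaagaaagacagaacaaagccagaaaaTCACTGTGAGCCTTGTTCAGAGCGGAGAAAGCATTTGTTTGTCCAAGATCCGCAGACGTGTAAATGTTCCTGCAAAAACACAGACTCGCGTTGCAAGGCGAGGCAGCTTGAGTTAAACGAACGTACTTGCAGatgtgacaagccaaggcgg
VEGF188: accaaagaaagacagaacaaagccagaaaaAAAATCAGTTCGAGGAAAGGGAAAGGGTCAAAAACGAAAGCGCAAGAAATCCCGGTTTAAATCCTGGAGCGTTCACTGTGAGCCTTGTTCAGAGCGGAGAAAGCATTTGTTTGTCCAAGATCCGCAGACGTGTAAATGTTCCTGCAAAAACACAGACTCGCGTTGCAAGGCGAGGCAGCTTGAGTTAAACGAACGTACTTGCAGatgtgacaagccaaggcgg
VEGF188 holds both exons, VEGF164 holds exon 7 alone, and VEGF120 holds neither. The lysine and arginine codons of exon 6 give VEGF188 its strong hold on the matrix, exon 7 gives VEGF164 its binding to heparan sulfate and Nrp1, and VEGF120 diffuses freely.

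Flt1 is shown at the point where its soluble form leaves the full-length one. Both sequences open with the last 30 bases of the shared exon 13 (chr5:147639225-147639533) in lower case, on the minus strand of mm10. In the full-length form the capitals are the first 60 bases of exon 14 (chr5:147634377-147634523), and in the soluble form they are the 92 coding bases read on into the intron (chr5:147639133-147639224).
Flt1 full length: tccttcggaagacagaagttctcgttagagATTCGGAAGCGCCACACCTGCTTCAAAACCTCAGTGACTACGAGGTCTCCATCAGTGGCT
Flt1 soluble: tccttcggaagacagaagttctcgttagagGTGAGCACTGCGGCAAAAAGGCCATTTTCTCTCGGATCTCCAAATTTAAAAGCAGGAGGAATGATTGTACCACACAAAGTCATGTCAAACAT
The full-length transcript encodes 1333 residues with the transmembrane and kinase parts. The soluble transcript encodes 688 residues and ends before both.

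Vegfb also has a pair of forms, which differ by an extra 101 bases of exon 6 (chr19:6985496-6985596, minus strand) that shift the reading frame of the tail. The capitals mark those bases in Vegfb-201, the longer protein. Vegfb-202 lacks them, encodes 188 residues and is the form known to bind heparin.
Vegfb-201: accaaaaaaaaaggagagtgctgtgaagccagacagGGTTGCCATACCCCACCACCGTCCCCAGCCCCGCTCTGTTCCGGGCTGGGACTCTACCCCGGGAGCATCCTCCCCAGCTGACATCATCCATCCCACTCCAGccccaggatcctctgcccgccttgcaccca
Vegfb-202: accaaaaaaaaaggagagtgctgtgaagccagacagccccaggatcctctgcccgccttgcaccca

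Summed over all transcripts, Vegfa led the members by a wide margin. It stood among the more abundant genes of these libraries, which also hold fat cell RNA (below). Its level in TPM, a measure of transcript abundance that is corrected for length and library depth, was 147.9 in mouse 2 and 133.1 in mouse 1, a mean of 140.5 ± 10.5 TPM (SD, n = 2), which ranked 305 of 21938 nuclear protein-coding genes. Transcripts with no annotated coding frame held 47.5% of its TPM in mouse 2 and 41.3% in mouse 1 (below). The gene lies at chr17:46016993-46032369 on the minus strand of mm10. The levels of the members covered more than 2 orders of magnitude, with the ligands at both ends and the receptors between them.

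Vegfb, a ligand of Flt1 and Nrp1, came next among the ligands, with 28.8 TPM in mouse 2 and 24.8 TPM in mouse 1 (mean 26.8 ± 2.78 TPM, SD, n = 2). It lies at chr19:6982473-6987651, minus strand. Vegfa exceeded Vegfb in TPM 5.14 times in mouse 2 and 5.36 times in mouse 1, with all transcripts of each gene counted. The leading coding transcript of Vegfa, Vegfa-202, alone had 55.16 TPM in mouse 2 and 51.55 TPM in mouse 1. Vegfc, the ligand of Flt4 that drives lymphatic growth, was far lower, with 1.48 TPM in mouse 2 and 1.59 TPM in mouse 1 (mean 1.54 ± 0.078 TPM, SD, n = 2), from 99 and 118 expected counts in mouse 2 and mouse 1. Its gene is at chr8:54077606-54187096, plus strand. Both libraries thus placed Vegfa highest, Vegfb next and Vegfc lowest of the VEGF ligands among the members.

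The angiopoietins were the lowest members, and at most 119 expected counts stood behind each of their values. Angpt1, at chr15:42424723-42676977 on the minus strand, had 0.87 TPM in mouse 2 and 0.63 TPM in mouse 1 (mean 0.75 ± 0.17 TPM, SD, n = 2). Its 95% credible bounds, as deposited with the estimate, were 0.727 to 1.05 TPM in mouse 2 and 0.525 to 0.779 TPM in mouse 1. Angpt2, at chr8:18690263-18741562 on the minus strand, had 0.62 TPM in mouse 2 and 0.59 TPM in mouse 1 (mean 0.605 ± 0.021 TPM, SD, n = 2). Its bounds were 0.511 to 0.943 TPM in mouse 2 and 0.418 to 0.966 TPM in mouse 1. The bounds of the 2 genes overlap, so the order of Angpt1 and Angpt2 was not resolved at this depth. Angpt2 shares its locus with Mcph1 on the other strand, which had 290 expected counts in mouse 2 and 342 in mouse 1, and whether the counting used strand is not given in the sources used here. Angpt1 overlaps the antisense gene Gm17473, with 3 and 4 expected counts in mouse 2 and mouse 1, and Nrp1 overlaps Mir1903, which had 0 counts in both.

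Among the receptors, Nrp1 and Kdr were highest and Flt4 lowest. Kdr, the main signalling receptor of VEGF-A (chr5:75932827-75978458, minus strand), had 24.7 TPM in mouse 2 and 21.8 TPM in mouse 1 (mean 23.2 ± 2.06 TPM, SD, n = 2). Nrp1, a co-receptor that presents VEGF164 to Kdr (chr8:128358604-128503363, plus strand), had 27.2 TPM in mouse 2 and 20.1 TPM in mouse 1 (mean 23.6 ± 5.00 TPM, SD, n = 2). The means of Nrp1 and Kdr were nearly equal, and the value of Nrp1 was above that of Kdr in mouse 2 and below it in mouse 1.

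Flt1 (chr5:147561604-147726011, minus strand) had 18.1 TPM in mouse 2 and 15.5 TPM in mouse 1 (mean 16.8 ± 1.84 TPM, SD, n = 2), so that Kdr exceeded Flt1 in TPM 1.37 times in mouse 2 and 1.41 times in mouse 1. Tek (chr4:94739289-94874976, plus strand) had 12.2 TPM in mouse 2 and 10.5 TPM in mouse 1 (mean 11.3 ± 1.20 TPM, SD, n = 2). Tek exceeded the sum of its ligands Angpt1 and Angpt2 in TPM 8.15 times in mouse 2 and 8.57 times in mouse 1. Flt4, the receptor of Vegfc and Vegfd on lymphatic and some fenestrated endothelium (chr11:49609263-49652739, plus strand), had 6.54 TPM in mouse 2 and 5.55 TPM in mouse 1 (mean 6.05 ± 0.700 TPM, SD, n = 2).

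**Figure D1:**
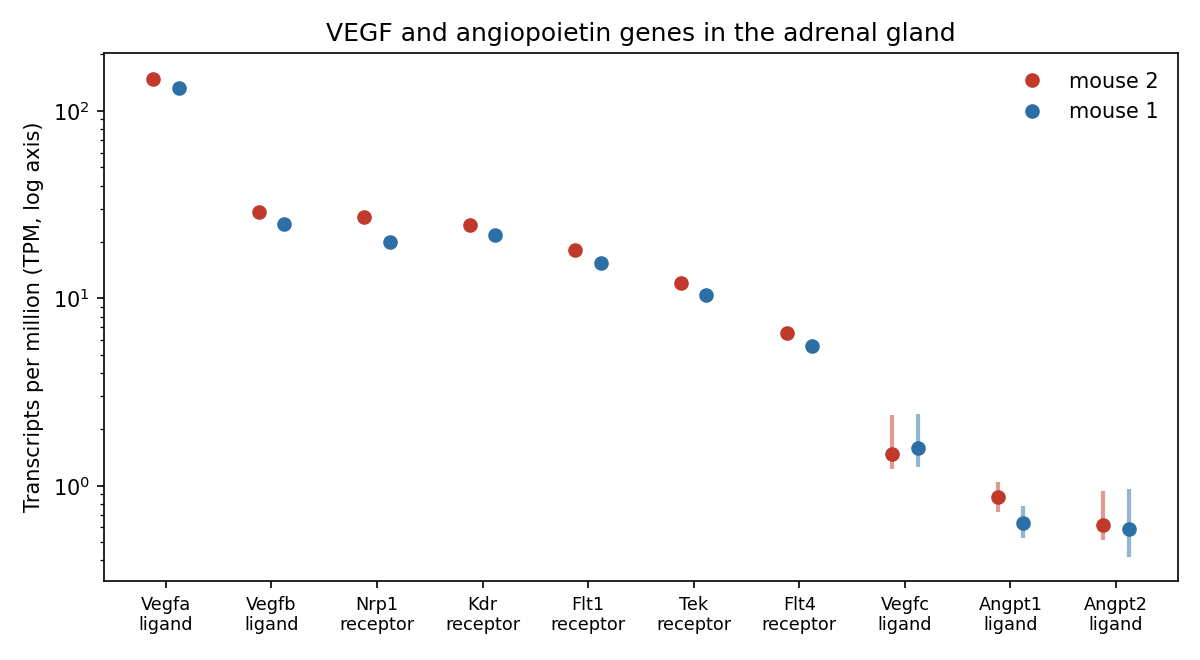
Level of each member in TPM (log axis), with mouse 2 left of mouse 1 and genes ordered by mean TPM. Lines are the 95% credible bounds deposited with the estimate, drawn for each gene and widest on the 3 lowest. Vegfa stands alone near 140.5 TPM, Vegfb and the 5 receptors lie between 5.55 and 28.8 TPM, and Vegfc, Angpt1 and Angpt2 lie under 2 TPM.

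Ordered by mean TPM, the members ran Vegfa, Vegfb, Nrp1, Kdr, Flt1, Tek, Flt4, Vegfc, Angpt1 and Angpt2. In 7 of the 9 neighbouring pairs the values of the 2 libraries did not overlap. The exceptions were Vegfb with Nrp1 and Nrp1 with Kdr, whose values overlapped. By the second quantification 6 pairs did not overlap, and Angpt1 over Angpt2 was 1.48 in mouse 2 and 0.90 in mouse 1. In bulk tissue, fewer cells of a type and less RNA per cell cannot be told apart, which holds for each of these levels.

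VEGF164 was the leading coding form of Vegfa in both mice. Its transcript Vegfa-202 held 37.3% of the gene's TPM in mouse 2 and 38.7% in mouse 1 (mean 38.0% ± 1.01, SD, n = 2), and of the coding transcripts alone it held 71.1% in mouse 2 and 66.0% in mouse 1. VEGF188, from Vegfa-207, held 6.52% of the gene's TPM in mouse 2 and 7.40% in mouse 1, or 12.4% and 12.6% of the coding transcripts in mouse 2 and mouse 1. VEGF120, from Vegfa-201, held 8.65% of the gene's TPM in mouse 2 and 12.6% in mouse 1, or 16.5% and 21.4% of the coding transcripts in mouse 2 and mouse 1. By these models, the freely diffusing and the matrix-bound form were thus both minor beside the form that holds exon 7 alone. The models also differ in length outside exons 6 and 7, with 3451 bases for Vegfa-202, 2765 for Vegfa-201 and 1973 for Vegfa-207. Reads over those exons were not counted apart, and the part of these lengths in the shares was not tested.

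Of these coding forms, VEGF120 had the share that differed most between quantifications. The count of Vegfa-201 was 1121 with a posterior SD of 137 in mouse 2, and 1818 with a posterior SD of 141 in mouse 1. That of Vegfa-207 was 594 with a posterior SD of 80 in mouse 2, and 751 with a posterior SD of 90.9 in mouse 1. The posterior SDs thus do not set VEGF120 apart. In a second quantification that the authors deposited for the same reads, VEGF120 held 2.13% of the gene's TPM in mouse 2 and 8.97% in mouse 1, while VEGF188 held 7.51% in mouse 2 and 8.12% in mouse 1. VEGF120 was therefore above VEGF188 in both mice by the first quantification, and below it in mouse 2 by the second. VEGF164 led the coding forms in both mice under each quantification.

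Transcripts of Vegfa with no annotated coding frame took 47.5% of its TPM in mouse 2 and 41.3% in mouse 1, but 14.2% of its expected counts in mouse 2 and 11.3% in mouse 1. They are short models with a retained intron: Vegfa-210 (852 bases) held 22.7% of the TPM in mouse 2 and 18.7% in mouse 1, Vegfa-209 (463 bases) held 21.2% and 18.8% in mouse 2 and mouse 1, and Vegfa-208 (550 bases) held 3.27% and 3.77% in mouse 2 and mouse 1. TPM divides by length, so the same reads weigh more on a short model. In total RNA, unspliced Vegfa can also give reads in these introns, and its part was not tested. By expected counts VEGF164 held 66.9% of the gene in mouse 2 and 65.0% in mouse 1.

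Full-length Flt1 exceeded its soluble form in both mice. The full-length transcript held 57.5% of the gene's TPM in mouse 2 and 59.2% in mouse 1, and the soluble one held 27.1% in mouse 2 and 22.7% in mouse 1. The ratio of soluble to full-length TPM was 0.47 in mouse 2 and 0.38 in mouse 1, and by the second quantification 0.46 in mouse 2 and 0.38 in mouse 1. The soluble model is told apart by sequence read on into an intron. In total RNA, unspliced Flt1 can also give reads there, and its part in the soluble share was not tested. The 95% credible bounds of the soluble transcript were 4.43 to 5.15 TPM in mouse 2 and 3.17 to 3.73 TPM in mouse 1, which do not overlap. Those of the full-length transcript, 9.71 to 10.6 TPM in mouse 2 and 8.60 to 9.41 TPM in mouse 1, do not overlap either. TPM values were higher in mouse 2 for most genes. Transcripts of Flt1 with no annotated coding frame took 15.3% of the TPM in mouse 2 and 18.1% in mouse 1. The largest of them, a processed transcript of 2049 bases, held 12.9% in mouse 2 and 16.2% in mouse 1, and one of 2030 bases with a retained intron held 1.84% in mouse 2 and 1.90% in mouse 1. By expected counts all 4 such models took 4.92% in mouse 2 and 6.10% in mouse 1.

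**Figure D2:**
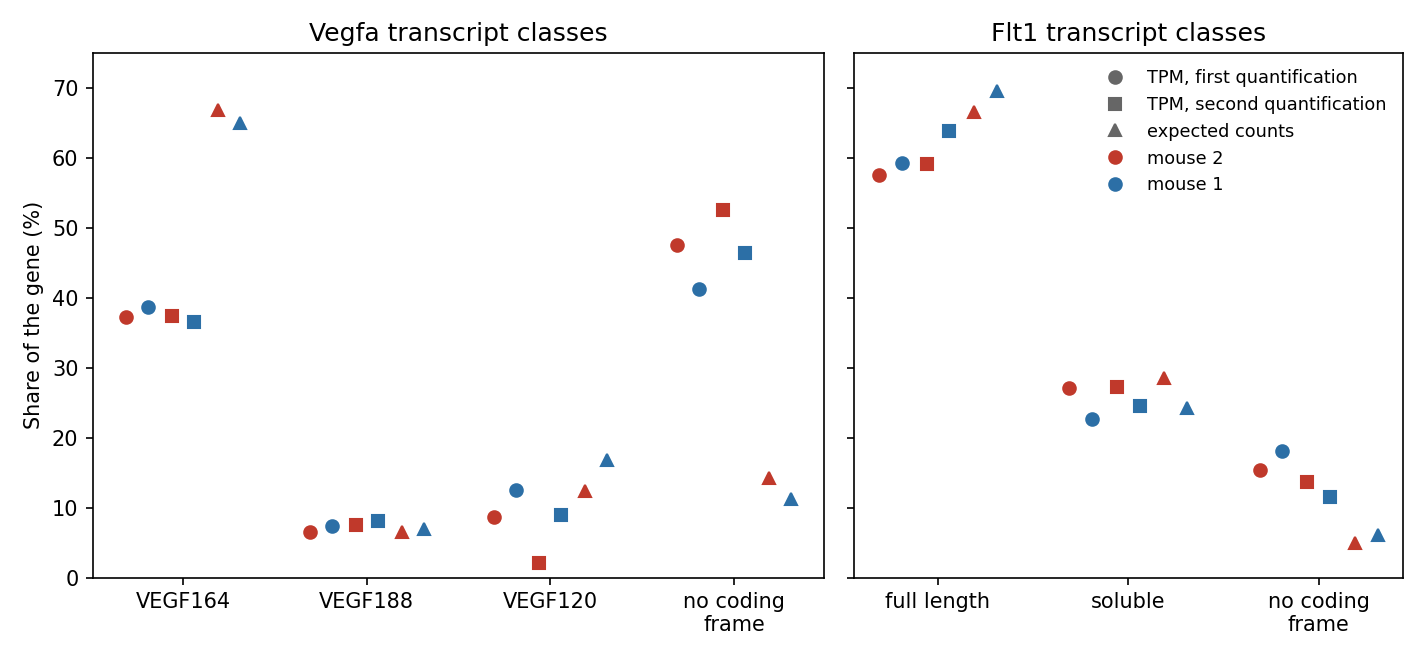
Share of each gene held by transcript classes of Vegfa (left) and Flt1 (right), in percent, with mouse 2 in red left of mouse 1 in blue; circles are TPM of the first quantification, squares TPM of the second and triangles expected counts. VEGF164 lies near 38.0% by TPM and 65.9% by counts, and soluble Flt1 lies between 22.7% and 28.5% on all 3 measures.

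The other members had simpler transcript profiles, apart from Vegfb and Tek. Vegfb was split nearly evenly: Vegfb-201 held 49.6% of its TPM in mouse 2 and 45.1% in mouse 1, and Vegfb-202 held 48.6% in mouse 2 and 53.2% in mouse 1, so that the order of the 2 forms differed between the mice, with overlapping credible bounds in both. Tek-203, which encodes 1123 residues, led Tek with 73.6% in mouse 2 and 63.9% in mouse 1. Tek-201, which encodes 1122 residues, held 14.1% in mouse 2 and 15.7% in mouse 1. By the second quantification Tek-201 held 24.0% in mouse 2 and 27.1% in mouse 1. Tek-202, which lacks an exon of 153 bases (chr4:94799127-94799279), held 9.10% in mouse 2 and 17.0% in mouse 1, but by the second quantification 3.99% in mouse 2 and 4.43% in mouse 1.

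A single transcript held nearly all of Kdr (97.7% in mouse 2 and 95.7% in mouse 1), Flt4 (92.8% and 94.8% in mouse 2 and mouse 1), Nrp1 (93.4% and 91.4% in mouse 2 and mouse 1) and Angpt1 (100% in both mice). The coding transcript of Angpt2 held 100% in mouse 2 and 80.1% in mouse 1, on 71 and 69 counts of the gene in mouse 2 and mouse 1. The leading transcript of Vegfc held 83.6% in mouse 2 and 72.3% in mouse 1, but by the second quantification 53.3% in mouse 2 and 60.1% in mouse 1. The angiopoietin proteins are annotated at nearly the same length, 498 residues for Angpt1 and 496 for Angpt2.

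The 2 libraries were compared gene by gene. Ratios were taken as mouse 2 over mouse 1 from expected counts scaled with TMM factors. A gene was called beyond counting noise where an exact two-sided binomial test of its counts gave a Benjamini-Hochberg adjusted p under 0.05 over the 17666 genes that averaged 10 counts or more. Such a call compares these libraries and no conditions. All 10 members were tested, and none was 2-fold apart, against 2.96% of all genes tested. 2 of the 10 were beyond counting noise, against 21.3% of all genes tested, with Nrp1 higher (10.4% of all genes) and Vegfa lower (11.0% of all genes) in mouse 2. Both shares are near those of all genes. At an unadjusted p under 0.05 there were 3, with Flt1 added, and the share of all genes at that threshold was not counted. The median log2 ratio of the members was 0.05, beside a median of -0.0011 over all genes tested. Of the 10, 8 were above 0, all but Nrp1 within counting noise, while 50.2% of all genes tested were below 0.

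Nrp1 had the largest ratio of the members called: 3087 expected counts in mouse 2 and 2821 in mouse 1 gave a log2 ratio of 0.26 (95% counting interval 0.19 to 0.34, adjusted p = 6.18e-11, exact binomial test). For a gene of its abundance the typical SD of a log2 ratio between these libraries was 0.16, from the dispersion trend of edgeR. Vegfa had 9079 expected counts in mouse 2 and 10828 in mouse 1, a log2 ratio of -0.12 (interval -0.16 to -0.079, adjusted p = 1.25e-07, exact binomial test), against a typical SD of 0.18. The ratio of Nrp1 was thus larger than the typical spread and that of Vegfa smaller. Of the 5540 genes that averaged 1000 counts or more, to which 7 members belong, 37.1% were beyond counting noise.

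The sign of Vegfa depends on the scale, since its TPM was the higher one in mouse 2. TPM was higher in mouse 2 for most genes, with a median ratio of mouse 2 to mouse 1 of 1.12 over 13136 genes at 1 TPM or more in both. The TPM ratio of Vegfa over all its transcripts, 1.11, was close to that median, while that of Nrp1, 1.35, was above it. The lower value seen in the counts of Vegfa was thus not seen in the gene's summed TPM. Of its coding transcripts, Vegfa-202 had 55.16 TPM in mouse 2 and 51.55 TPM in mouse 1. Vegfa-201 (12.8 and 16.76 TPM in mouse 2 and mouse 1) and Vegfa-207 (9.65 and 9.85 TPM) were lower in mouse 2. The short Vegfa transcripts with no coding frame held more of the gene in mouse 2 (47.5% of TPM) than in mouse 1 (41.3%). Vegfa-210 had 33.5 TPM in mouse 2 and 24.91 TPM in mouse 1, and Vegfa-209 had 31.36 and 25.02 TPM. The part of these transcripts in the difference between the scales was not tested. The remaining members lay within counting noise, with Flt1 at a log2 ratio of 0.07 (0.0053 to 0.14, adjusted p = 0.119, exact binomial test) and Kdr at 0.02 (-0.04 to 0.076). Vegfb, Tek and Flt4 lay between 0.04 and 0.05. The intervals of Vegfc (-0.52 to 0.28), Angpt1 (-0.088 to 0.69) and Angpt2 (-0.32 to 0.68) were wide, and smaller differences than these were not detectable at their depth.

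**Figure D3:**
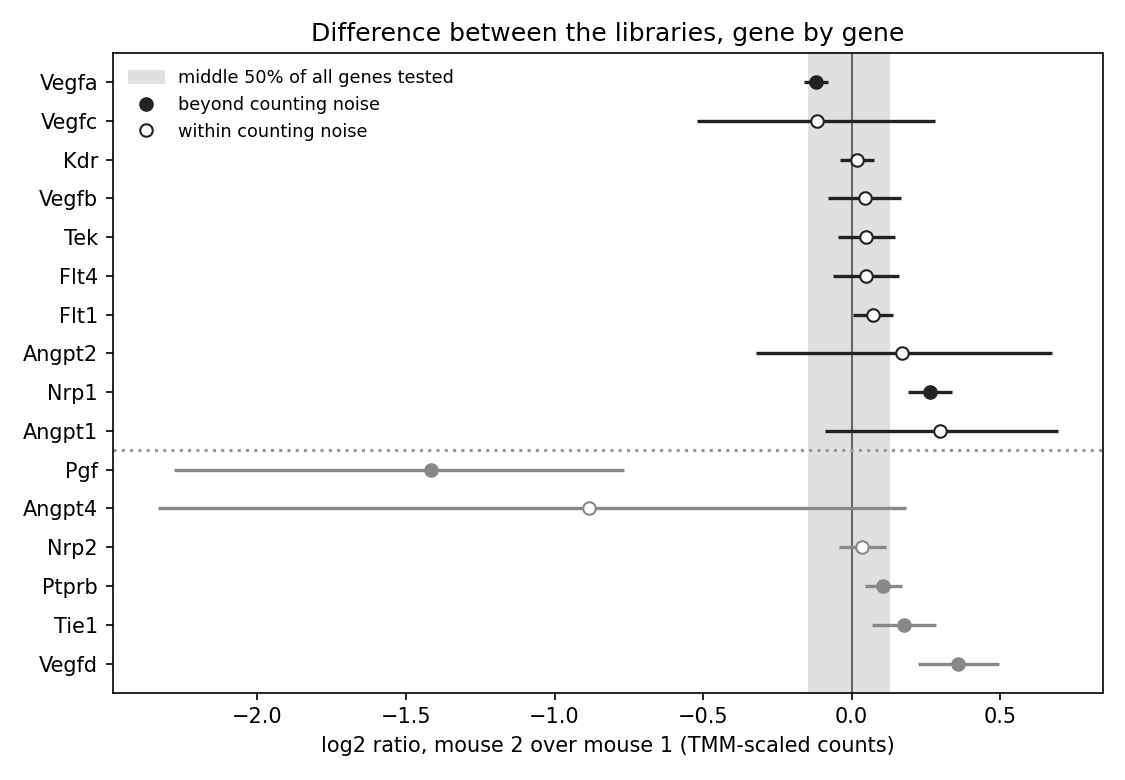
Log2 ratio of mouse 2 over mouse 1 for the 10 members (black, above the dotted line) and 6 related genes (grey), with bars for the 95% counting interval; filled points are beyond counting noise and the grey band holds the middle 50% of all genes tested. Nrp1 and Vegfa are the filled members, and Pgf at -1.42 lies furthest from 0.

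The related genes outside the members were measured in the same way. Vegfd, the other ligand of Flt4, had 14.9 TPM in mouse 2 and 10.3 TPM in mouse 1 and exceeded Vegfc in TPM 10.1 times in mouse 2 and 6.50 times in mouse 1. Its log2 ratio of 0.36 was beyond counting noise (adjusted p = 3.4e-06, exact binomial test). Pgf, a ligand of Flt1, had 0.46 TPM in mouse 2 and 1.08 TPM in mouse 1 (log2 ratio -1.42, adjusted p = 0.00015, exact binomial test). By TPM, Vegfd rather than Vegfc was thus the more abundant Flt4 ligand, in both mice.

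Tie1, the partner receptor of Tek, had 11.2 TPM in mouse 2 and 8.62 TPM in mouse 1 (log2 ratio 0.18, adjusted p = 0.0086, exact binomial test). Ptprb, a phosphatase that restrains Tek, had 13.4 TPM in mouse 2 and 11.6 TPM in mouse 1 (log2 ratio 0.11, adjusted p = 0.005, exact binomial test). Nrp2, a co-receptor for VEGF-C, had 12.5 TPM in mouse 2 and 10.9 TPM in mouse 1 (log2 ratio 0.04). Angpt4 had 0.12 TPM in mouse 2 and 0.22 TPM in mouse 1. Nrp2, Tie1 and Ptprb thus lay in the TPM range of the receptors among the members.

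Endothelial markers gave the scale for the receptors. Pecam1 had 21.4 TPM in mouse 2 and 16.9 TPM in mouse 1, and the TPM of Kdr was 1.16 times that of Pecam1 in mouse 2 and 1.28 times in mouse 1. That of Tek was 0.569 times Pecam1 in mouse 2 and 0.617 times in mouse 1. Plvap, the diaphragm protein of fenestrated endothelium, led the 11 endothelial markers with 65.2 TPM in mouse 2 and 56.0 TPM in mouse 1, ahead of Egfl7 (48.4 TPM in mouse 2, 30.1 TPM in mouse 1) and Eng (30.4 TPM in mouse 2, 27.6 TPM in mouse 1). The median log2 ratio of the markers was 0.06. Of the 11, 9 were above 0, while 50.2% of all genes tested were below 0. Beyond counting noise were 2 (Esam and Egfl7, both higher), against 10.4% higher among all genes tested.

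Of 6 lymphatic markers, 6 had count ratios below 0, as did 50.2% of all genes tested. The median log2 ratio of the 6 was -0.29. Of the 6, 3 were lower beyond counting noise, against 11.0% of all genes tested. These were Prox1, Mmrn1 and Ccl21a, whose near-identical copies can share reads. Prox1 had 13.1 TPM in both mice, far above the others, so its level cannot be read as lymphatic endothelium alone. Which cells it came from was not tested. Lyve1 had 1.86 TPM in mouse 2 and 2.31 TPM in mouse 1, and Pdpn had 1.79 TPM in mouse 2 and 1.90 TPM in mouse 1. Reln went the other way by TPM, with 1.01 TPM in mouse 2 and 0.26 TPM in mouse 1, at a count ratio of -0.05. Flt4, the lymphatic receptor, had a log2 ratio of 0.05, within counting noise. The 9 pericyte and smooth muscle markers were led by Acta2 (11.98 TPM in mouse 2, 10.2 TPM in mouse 1), Pdgfrb (7.73 TPM in mouse 2, 6.66 TPM in mouse 1) and Rgs5 (6.27 TPM in mouse 2, 4.42 TPM in mouse 1). Of the 9, 4 were beyond counting noise (Rgs5, Cspg4, Notch3 and Abcc9), all higher, against 10.4% higher among all genes tested. The median log2 ratio of the 9 was 0.04. Pericytes and smooth muscle cells are a known source of Angpt1.

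Of 24 genes that carry the signal of the VEGF receptors and Tek inside the cell, 23 were tested. Of these, 6 were higher and 2 (Akt1 and Rac1) lower beyond counting noise, and the median log2 ratio was 0.07. Among all genes tested, 10.4% were higher and 11.0% lower beyond counting noise. The most abundant were the kinase Akt1 (134.4 TPM in mouse 2, 132.1 TPM in mouse 1) and the GTPases Cdc42 (130.3 TPM in mouse 2, 111.0 TPM in mouse 1) and Rac1 (109.1 TPM in mouse 2, 104.0 TPM in mouse 1). Of 6 genes that VEGF induces in endothelium, 5 were tested, with Pdgfb higher and Esm1 lower beyond counting noise and a median of 0.18. Pdgfb had 15.9 TPM in mouse 2 and 12.3 TPM in mouse 1, Esm1 had 10.4 TPM in mouse 2 and 10.8 TPM in mouse 1, and Cd34 had 11.4 TPM in mouse 2 and 9.59 TPM in mouse 1.

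Oxygen sensing is the best-known control of Vegfa. Of 9 genes of that machinery 1 (Egln1) was higher and 1 (Egln2) lower beyond counting noise, at a median log2 ratio of 0.02. The shares over all genes tested were 10.4% higher and 11.0% lower. Epas1, the HIF-2 alpha subunit, led them with 65.2 TPM in mouse 2 and 61.2 TPM in mouse 1, followed by Egln2 (36.6 TPM in mouse 2, 34.0 TPM in mouse 1) and Arnt (21.5 TPM in mouse 2, 20.0 TPM in mouse 1). Of 10 other hypoxia targets 8 were tested, 2 (Ldha and Pdk1) were higher and 1 (Pgk1) lower beyond counting noise, at a median of 0.08. Pgk1 had 100.9 TPM in mouse 2 and 95.9 TPM in mouse 1, Ldha had 100.4 TPM in mouse 2 and 65.2 TPM in mouse 1, and Bnip3 had 76.6 TPM in mouse 2 and 73.4 TPM in mouse 1.

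All 4 genes for proteins that bind AU-rich elements of the Vegfa messenger had count ratios below 0, as did 50.2% of all genes tested. 3 of them (Zfp36, Zfp36l1 and Zfp36l2) were lower beyond counting noise, against 11.0% of all genes tested, and the median log2 ratio was -0.21. Zfp36l1, which speeds decay, had 80.5 TPM in mouse 2 and 79.6 TPM in mouse 1, Elavl1, which stabilizes, had 27.2 TPM in mouse 2 and 24.8 TPM in mouse 1, and Zfp36l2 had 20.2 TPM in mouse 2 and 21.4 TPM in mouse 1. Zfp36 is itself an immediate early gene and had a log2 ratio of -0.65. No direct relation to Vegfa was tested.

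The tissue label was checked against defining markers. Adrenal cortex genes were very high, led by Star (5742 TPM in mouse 2, 5127 TPM in mouse 1), Hsd3b1 (5673 TPM in mouse 2, 5098 TPM in mouse 1) and Cyp21a1 (5124 TPM in mouse 2, 4853 TPM in mouse 1). Of the 7, 2 were higher and 4 lower beyond counting noise, at a median log2 ratio of -0.08. Of all genes that averaged 1000 counts or more, 37.1% were beyond counting noise in either direction. Chromaffin cell genes of the medulla were high as well, led by Chga (702.9 TPM in mouse 2, 751.1 TPM in mouse 1), Chgb (625.9 TPM in mouse 2, 655.7 TPM in mouse 1) and Pnmt (228.2 TPM in mouse 2, 288.0 TPM in mouse 1). All 5 were lower beyond counting noise, against 11.0% of all genes tested, at a median of -0.24 for the 5. Both parts of the gland were therefore present in both libraries.

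Adipocyte, globin and immediate early genes differed between the libraries in 1 direction each. All 6 adipocyte markers were higher in mouse 2, at a median log2 ratio of 0.68, with a summed level of 1986 TPM in mouse 2 and 1233 TPM in mouse 1 and all 6 at 1 TPM or more in both. Cfd had 754.2 TPM in mouse 2 and 533.2 TPM in mouse 1, Fabp4 had 566.5 TPM in mouse 2 and 329.3 TPM in mouse 1, and Ucp1, the marker of brown fat, had 276.5 TPM in mouse 2 and 141.4 TPM in mouse 1. Nrp1 and Vegfd were higher in the same library. The part of fat tissue in those ratios, and in the levels of the members, was not tested.

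The 4 globin genes were lower in mouse 2, at a median of -1.02, with a summed level of 406.0 TPM in mouse 2 and 743.9 TPM in mouse 1. Hba-a1 had 145.9 TPM in mouse 2 and 277.9 TPM in mouse 1, Hba-a2 had 104.4 TPM in mouse 2 and 192.7 TPM in mouse 1, and Hbb-bs had 138.6 TPM in mouse 2 and 244.8 TPM in mouse 1, although near-identical globin copies can share reads. The 4 immediate early genes were lower in mouse 2 too, at a median of -2.58. Nr4a1 had 158.4 TPM in mouse 2 and 256.8 TPM in mouse 1, Junb had 10.3 TPM in mouse 2 and 60.6 TPM in mouse 1, and Egr1 had 6.41 TPM in mouse 2 and 30.8 TPM in mouse 1. Scaled counts of Vegfa, which such stimuli can induce, were lower in the same library while the summed TPM of its transcripts was not. The part of such stimuli in its count ratio was not tested. Of 5 macrophage markers, led by C1qa (21.8 TPM in mouse 2, 18.7 TPM in mouse 1), Csf1r (8.74 TPM in mouse 2, 9.54 TPM in mouse 1) and Cd68 (7.0 TPM in mouse 2, 5.15 TPM in mouse 1), none was beyond counting noise.

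**Figure D4:**
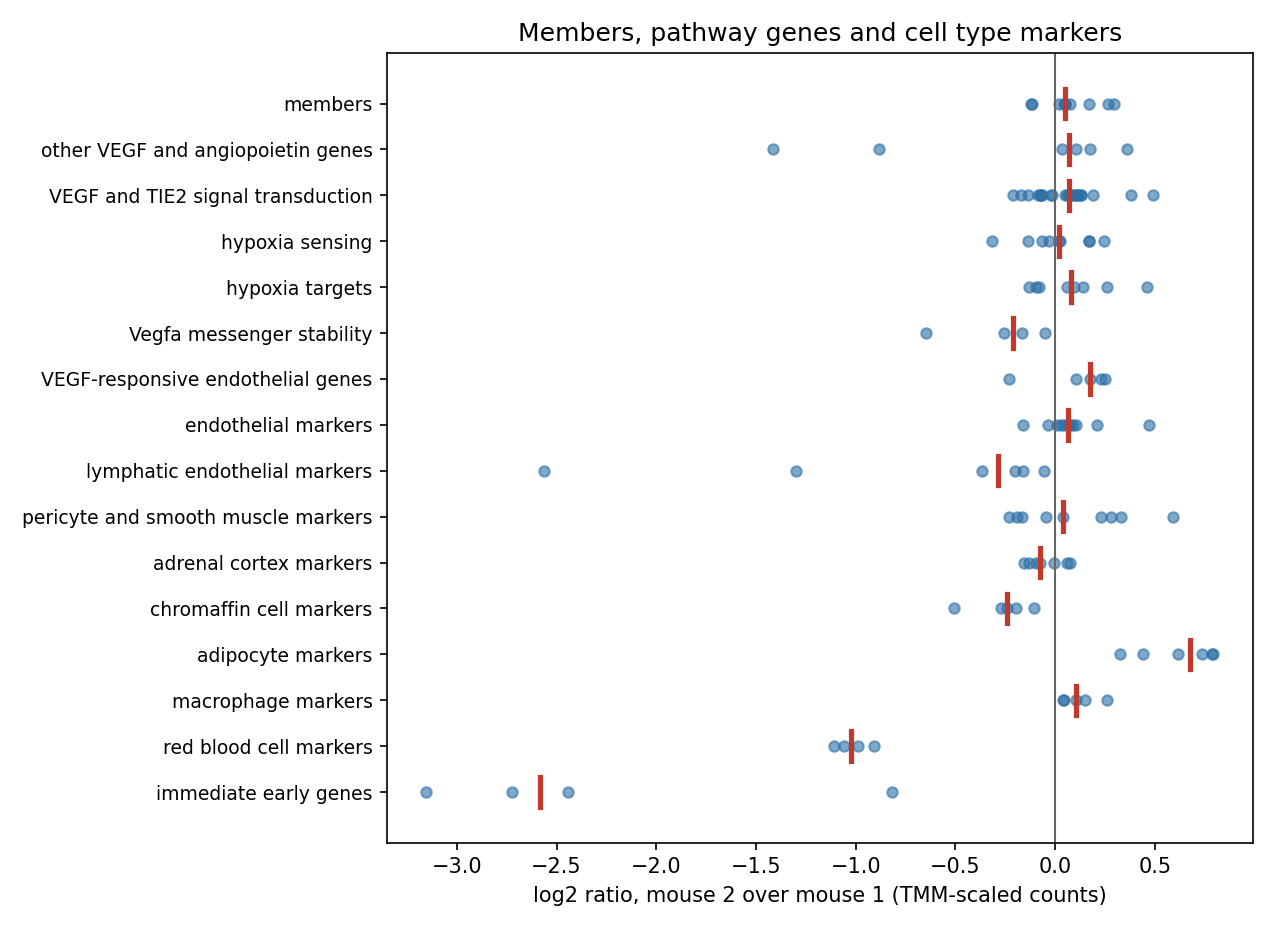
Log2 ratio of mouse 2 over mouse 1 for each tested gene (points) of the members, pathway lists and cell type marker lists, with the list's median as a red bar. The members lie between -0.12 and 0.30, while the adipocyte, red blood cell and immediate early lists have medians of 0.68, -1.02 and -2.58.

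The second quantification left the level of every member close to the first. The log2 ratio of second to first mean TPM lay between -0.17 and 0.07 over the 10 genes, and none differed 2-fold, against 4.78% of genes at a mean of 1 TPM or more.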

How the data were processed

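Adrenal gland total RNA was sequenced in 2 libraries, which form 1 group. Per the deposited text files, all tables use mm10 with GENCODE M21, and no source used here names the aligner or quantifier. Reads of a CAST cross were placed on the reference of another strain, and alleles that differ from it may be undercounted. The authors deposited expected counts per gene and transcript, TPM, FPKM, the percent of its gene that each transcript holds, and, as a score, the posterior SD of each count with credible bounds of TPM. The authors also deposited a second transcript quantification of the same reads, with estimated counts and TPM, which was summed to genes.

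Rows that name no gene were left out: ERCC rows held 0.526% of the table in mouse 2 and 0.502% in mouse 1, and 26249 other rows held 0.000744% in mouse 2 and 0.000982% in mouse 1. Log2 ratios came from edgeR 4.0.16 in R 4.3.3, with TMM factors and a prior count of 2, for genes that averaged 10 counts or more. Expected counts were rounded for the exact binomial test and for the edgeR dispersion (intercept alone), whose common coefficient of variation was 11.4%. Tests used Benjamini-Hochberg adjustment over all genes tested, and the procedure was tested on simulated data. Intervals cover counting error only. DESeq2 1.42.0 gave an alternative scaling. Other alternatives were total count and ERCC scaling, other count filters, nuclear protein-coding genes alone, a prior count of 0.5, FPKM, and the second quantification.

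The members and 15 further lists (116 genes) were chosen with earlier results of these data known. All members and related genes are named, with the 3 members of highest mean TPM of every other list. Genes beyond that rule were named after their values were seen: Pecam1 as the endothelial scale, Zfp36, Reln, and members of a list that make up a count of few genes. The Vegfa forms were named from the coding exons 6 and 7 held by the GENCODE models, with residues counted from the start codon of Vegfa-201, since the annotated frames of Vegfa-202 and Vegfa-207 start upstream. No set test was made.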

Additional observations from a re-analysis of the deposited data

How the results depend on the processing

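No paired analysis was possible because the series holds 1 group of 2 libraries. The count ratios of Nrp1 and Vegfa kept their direction and call under each scaling, count filter and gene set and in the second quantification, and their direction at a prior count of 0.5, where no call was made. On the TPM and FPKM scales Vegfa was the higher in mouse 2 (147.9 TPM and 150.2 FPKM in mouse 2, 133.1 TPM and 147.5 FPKM in mouse 1). Neighbours in the order of levels that did not overlap numbered 7, 6 in the second quantification and 8 after rescaling to nuclear protein-coding genes. Flt1 passed counting noise under total count scaling (log2 ratio 0.12), which made 3 members beyond it, beside 4356 of all 17666 genes tested. The ratio of Kdr was -0.0024 under ERCC scaling. Angpt2 fell outside the filter at a mean of 100 counts. The median TPM of the members was 14.04, 45.4 when rescaled to nuclear protein-coding genes, and 12.97 to 15.1 in single libraries. The number of genes 2-fold higher in mouse 2 was 204, and 1346 with no count filter, 28 at a mean of 100 counts and 112 among nuclear protein-coding genes; 2-fold lower it was 319, and 1310, 37 and 141 under the same settings. The common spread was 11.4%, and 9.03% among nuclear protein-coding genes. By share of expected counts VEGF164 held 65.9%, VEGF120 14.6%, Vegfa without a coding frame 12.8% and full-length Flt1 68.1%. In the second quantification VEGF188 held 7.81%, VEGF120 5.55%, Vegfa without a coding frame 49.4% and full-length Flt1 61.5%. The cause was not tested. Single libraries gave shares of TPM of 37.3 to 38.7% for VEGF164, 6.52 to 7.40% for VEGF188, 8.65 to 12.6% for VEGF120, 41.3 to 47.5% without a coding frame, 57.6 to 59.2% for full-length and 22.7 to 27.1% for soluble Flt1. Depth limits Vegfc, Angpt1 and Angpt2, which had 69 to 119 counts.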
